A study of Mus musculus with 2 samples.

Results

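The Mir34 and Mir449 genes are 6 miRNA genes at 3 loci, Mir34a, Mir34b, Mir34c, Mir449a, Mir449b and Mir449c. They were chosen by name, with earlier results of these data known, from the 2202 miRNA genes counted in the series, and all 6 were found. The read counts on each gene's own strand are the values by which they were chosen, so their levels and the differences between libraries are given as a description, with no test. The samples were C2C12 myotubes, the multinucleated fibres that form when this mouse myoblast line differentiates. The line came from the thigh muscle of C3H mice after a crush injury and was supplied by ATCC. The series held 1 group of 2 small RNA libraries, both differentiated for 72 h. The labels name no genetic change, no treatment and no undifferentiated control. The libraries are labelled biological replicates 1 and 2, came from separate biosamples of the same line and have 1 technical replicate each.

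MiRNAs of this family share a seed, the stretch near the 5′ end of a miRNA that pairs with target messenger RNAs. Mir34a and the Mir34b-Mir34c pair are transcribed under the control of p53, the stress-responsive tumour suppressor, and the family represses messenger RNAs of cell-cycle and survival proteins such as Cdk6 and Bcl2. The Mir449 genes lie within Cdc20b, respond to E2F1, a transcription factor of the cell cycle, and are best known from multiciliated epithelial cells and from testis. Differentiating myoblasts leave the cell cycle before they fuse, which is the setting in which such miRNAs were read here.

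The mature arms are shown because the shared seed defines the family and because the arms outside the seed tell how far the genes can be told apart by sequencing. Of the 6 genes, 5 matched the RefSeq miRNA table (GRCm38.p6), with 9 mature arms, 4 from the 5′ side and 5 from the 3′ side of the hairpin. Mir449b and the 5′ arm of Mir34c are named only. In the sequences below, written 5′ to 3′, capitals mark the seed, bases 2 to 8.
mmu-miR-34a-5p: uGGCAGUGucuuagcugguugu
mmu-miR-34b-5p: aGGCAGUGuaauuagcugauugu
mmu-miR-449a-5p: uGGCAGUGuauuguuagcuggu
mmu-miR-449c-5p: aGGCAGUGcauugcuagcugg
mmu-miR-34a-3p: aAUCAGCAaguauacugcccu
mmu-miR-34b-3p: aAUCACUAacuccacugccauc
mmu-miR-34c-3p: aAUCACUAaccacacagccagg
mmu-miR-449a-3p: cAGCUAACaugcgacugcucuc
mmu-miR-449c-3p: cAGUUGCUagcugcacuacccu

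All 4 of these 5′ arms carried the seed GGCAGUG, and none of the other arms among the 1738 mature arms in the table did. The 3′ arms fell into different seeds. Mir34b and Mir34c shared AUCACUA there, Mir34a had AUCAGCA, Mir449a had AGCUAAC and Mir449c had AGUUGCU. Outside the seed the 4 listed 5′ arms were alike to differing degrees. The 5′ arm of Mir34c, absent from the table, was not compared with them, so its likeness to miR-34b-5p was not measured. Counted from the 5′ end without gaps, miR-449a-5p and miR-449c-5p were identical at 18 of 21 positions, miR-34a-5p and miR-449a-5p at 15 of 22, and miR-34b-5p and miR-449a-5p at 10 of 22. The longest exact run that 2 of these 5′ arms shared was 9 bases. On the 3′ side, miR-34b-3p and miR-34c-3p were identical at 17 of 22 positions.

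By exact shared runs, the whole hairpins were also distinct from each other and from the rest of the annotation. The longest exact run that a member's hairpin shared with any other annotated miRNA hairpin on the same strand was 14 bases, between Mir449a and Mir679. It was 12 bases for Mir34a and Mir449c and 11 bases for Mir34b, Mir34c and Mir449b. No member's hairpin held an exact stretch of 20 bases found in another hairpin on either strand. Multimapping reads, 22.0% of the reads of replicate 1 and 17.9% of those of replicate 2, were not assigned to genes. By this measure no member has an annotated copy that is identical over 20 bases. Exact runs miss copies that differ by single bases, and the 5′ arms of Mir34b and Mir34c were not compared. Whether reads of Mir34b and Mir34c were fully told apart in the counts was not tested.

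On the mm10 assembly, the plus-strand gene Mir34a (ENSMUSG00000065493.1) spans 150068454 to 150068555 of chromosome 4. Its last 17 bases overlap an exon of Gm37795, an unclassified transcript on the same strand. Mir34b (ENSMUSG00000065492.1) lies on chromosome 9 from 51103562 to 51103645 and Mir34c (ENSMUSG00000065587.1) from 51103034 to 51103110, both on the minus strand. The gap between these hairpins is 451 bases, Mir34b comes first in the direction of transcription, and both lie opposite an intron of Btg4, an antiproliferative gene on the plus strand. The Mir449 genes lie on the plus strand of chromosome 13, all in intron 2 of Cdc20b and on its strand. Mir449c (ENSMUSG00000076146.1) runs from 113035983 to 113036091, Mir449b (ENSMUSG00000078027.1) from 113037419 to 113037498 and Mir449a (ENSMUSG00000065575.1) from 113037534 to 113037624. A gap of 35 bases separates Mir449b from Mir449a, and 1327 bases separate Mir449c from Mir449b.

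**Figure D1:**
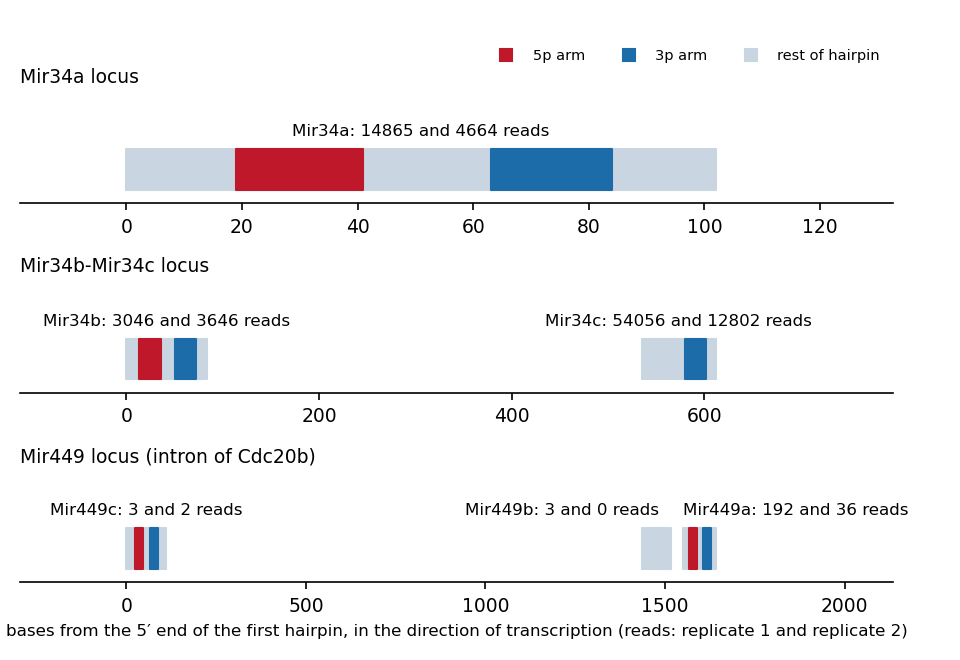
Map of the 3 loci, with distance in bases from the 5′ end of the first hairpin in the direction of transcription on each horizontal axis. Pale boxes are annotated hairpins, red and blue boxes are the 5p and 3p arms where the RefSeq table lists them, and the numbers are reads in replicate 1 and in replicate 2. Mir34c had 54056 and 12802 reads and its neighbour Mir34b 3046 and 3646.

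Replicate 1 held 7581366 and replicate 2 held 9865298 reads on the own strand of a miRNA gene. Levels are given as CPM, the usual normalised read count scaled to these totals. A small RNA read was taken to stand for a whole mature miRNA, so levels were compared between genes without a length correction. How evenly different miRNAs were captured in the libraries was not measured, so ratios between genes are ratios of reads. Both arms of a hairpin are summed in 1 count. The 9 markers of the labelled cell type, myotubes, held 35.5% (replicate 1) and 42.8% (replicate 2) of miRNA reads, mostly at Mir206 and Mir133b. The muscle genes Mir1a-1, Mir1a-2, Mir133a-1 and Mir133a-2 were at 1.01 to 4.22 CPM, as low as epithelial genes. These 4 genes, Mir133b and Mir486 each have a stretch of 20 bases in common with another hairpin, so their counts are uncertain. Here and below, such a stretch can lie on the same or on the opposite strand of the other hairpin. Markers of other cell types were low, with 10.8 and 8.21 CPM summed over 8 epithelial genes, of which Mir200a and Mir429 had no read. The 5 blood-cell markers summed to 105 and 183 CPM, the 2 endothelial markers to 219 and 44.5 CPM, the 7 neuronal markers to 84.4 and 87.8 CPM, and the 5 germ-cell markers to 30.1 and 14.1 CPM in replicates 1 and 2. Nearly all of the neuronal sum was 1 gene, Mir153, at 84.4 and 87.7 CPM. Of the 7 neuronal genes 5 had no read, the Mir124a and Mir9 genes among these having near-identical copies. With strand ignored, the mean endothelial share of miRNA reads went from 0.0132% to 0 and the blood-cell share from 0.0144% to 0.000357%. Mir126a, Mir126b, Mir142 and Mir451a also have a stretch of 20 bases in common with another hairpin, so these sums are uncertain. In bulk RNA, fewer cells that carry a miRNA and less of it per cell cannot be told apart.

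The myotubes carried this family almost wholly as Mir34 genes. Together the 6 genes made up 0.952% of the miRNA reads of replicate 1 (95% exact Clopper-Pearson interval 0.945% to 0.959%) and 0.214% in replicate 2 (0.212% to 0.217%), or 0.583% ± 0.521 (SD, n = 2). These intervals, and those below, cover the counting error of reads within a library only. The Mir34 genes had 71967 and 21112 reads, the Mir449 genes 198 and 38. The Mir34 genes thus exceeded the Mir449 genes 363-fold in replicate 1 (95% counting interval 316 to 420.0) and 556-fold in replicate 2 (405 to 785), a log2 ratio of 8.80 ± 0.42 (SD, n = 2).

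Mir34c was the leading member. It was read at 7130 CPM in replicate 1 and 1298 CPM in replicate 2, with a mean of 4214 ± 4124 CPM (SD, n = 2). It ranked 21st of all miRNA genes in replicate 1 and 52nd in replicate 2, and made up 74.9% and 60.5% of the family's reads. Mir34c was high in both libraries, but its level was not settled by 2 libraries that stand this far apart.

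Mir34a, the single-gene member of the family, was read at 1961 CPM in replicate 1 and 473 CPM in replicate 2, with a mean of 1217 ± 1052 CPM (SD, n = 2). It ranked 44th and 78th. Its share within the family was steady, at 20.6% and 22.1%. Mir34c exceeded Mir34a in each library, 3.64-fold (95% counting interval 3.57 to 3.70) in replicate 1 and 2.74-fold (2.65 to 2.84) in replicate 2. Mir34a in replicate 1 was nevertheless above Mir34c in replicate 2, so the order of these 2 genes held within each library and their values overlapped across libraries.

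Mir34b, which lies just upstream of Mir34c, was the most even member. It was read at 402 CPM in replicate 1 and 370 CPM in replicate 2, with a mean of 386 ± 22.8 CPM (SD, n = 2), and it ranked 93rd and 89th. Every Mir34a and Mir34c value was above both Mir34b values. A few reads lay on the strand opposite Mir34b, where the Btg4 intron is, 1 in replicate 1 and 3 in replicate 2. No opposite-strand read was counted at any other member.

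Mir449a was the only Mir449 gene read above a trace. It had 192 reads (25.3 CPM) in replicate 1 and 36 reads (3.65 CPM) in replicate 2, with a mean of 14.5 ± 15.3 CPM (SD, n = 2), and ranked 181st and 262nd. Both of its values were below every value of the Mir34 genes. Mir449c had 3 and 2 reads, and Mir449b had 3 reads in replicate 1 and none in replicate 2, where a count of 0 allows up to 0.304 CPM. Neither exceeded the 3 reads taken as the detection floor (0.396 CPM in replicate 1), so their order was not resolved. Within the Cdc20b intron Mir449a exceeded Mir449c 64-fold in replicate 1 (95% counting interval 21.6 to 313) and 18-fold in replicate 2 (4.63 to 154). Its excess over Mir449b was also 64-fold in replicate 1, with the same interval, and at least 12-fold against the floor of 3 reads in replicate 2. Levels at least 2 CPM in both libraries, the threshold for calling a gene detected, were thus reached by Mir34a, Mir34b, Mir34c and Mir449a.

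**Figure D2:**
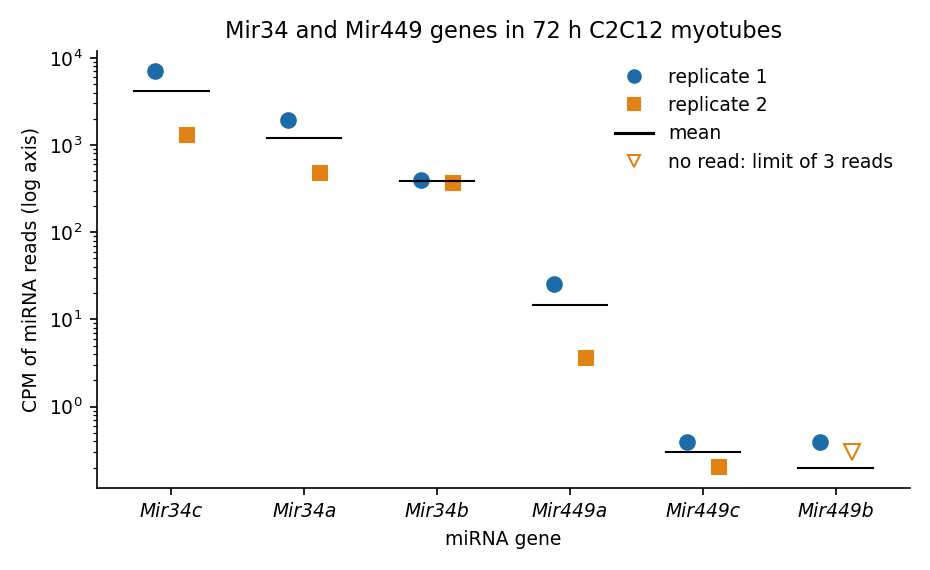
Level of each gene in CPM of miRNA reads on a log axis, with replicate 1 as circles, replicate 2 as squares and the mean as a line; the open triangle marks the limit of 3 reads where none was counted. Mir34c, Mir34a and Mir449a were lower in replicate 2, while the Mir34b values of 402 and 370 CPM nearly coincided.

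The second comparison was between the libraries, using library sizes scaled by edgeR's TMM method. Mir34a, Mir34c and Mir449a had higher levels in replicate 1, whereas Mir34b had nearly the same level in both. The ratio of replicate 1 to replicate 2 was 6.80 for Mir449a (95% counting interval 4.74 to 9.99), 5.38 for Mir34c (5.28 to 5.48), 4.06 for Mir34a (3.93 to 4.20) and 1.06 for Mir34b (1.01 to 1.12). The counting intervals of Mir34a and Mir34c did not overlap that of Mir34b. They leave out variation between replicate libraries, so nothing is read from this. For the whole family the ratio was 4.35 (4.28 to 4.41). This compares 2 libraries of the same condition, not conditions.

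The ratios were set beside those of all miRNA genes. Genes with 10 or more reads over both libraries numbered 415, and 4 of the 6 members were among them. Mir449b and Mir449c fell short of this minimum. Of the 4 members, 3 differed 2-fold or more in the direction of replicate 1, against 16.6% of all 415 genes (69 genes), and none did so in the direction of replicate 2, against 11.3% (47 genes). Mir34c and Mir449a were known to stand far apart when the family was chosen, and nothing is read from that count. Ordered by their log2 ratio (with 0.5 reads added) from the most replicate 1-weighted down, Mir449a was 8th, Mir34c 15th, Mir34a 25th and Mir34b 197th of the 415 genes, whose median log2 ratio was 0.02.

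Genes of like abundance were looked at separately, because ratios scatter more at low counts. Of 24 other genes with a mean level within 2-fold of Mir34c, 4 were 2-fold or more higher in replicate 1 and 1 had a higher ratio than Mir34c. Of 39 genes near the level of Mir34a, 6 were 2-fold or more higher in replicate 1 and 1 had a higher ratio. Near Mir34b the numbers were 12 of 46 genes, with 30 above Mir34b. Near Mir449a they were 9 of 55 genes, with none above Mir449a and a highest log2 ratio of 2.63. The median log2 ratio of these other genes was 0.26 near Mir34c, 0.25 near Mir34a, 0.46 near Mir34b and -0.01 near Mir449a. These places, too, come from the ratios known when the family was chosen, and nothing is read from them.

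Hairpin GC content was lower among the genes higher in replicate 1, with quartiles that overlapped those of the other genes. The 69 genes 2-fold or more higher in replicate 1 had a median hairpin GC content of 47.1%, against 53.03% for the 47 genes higher in replicate 2 and 53.2% for the 299 genes between. Among the members, GC content was 40.3% for Mir34c, 44.1% for Mir34a, 47.6% for Mir34b and 50.5% for Mir449a. Mir449a, with the highest ratio, had the highest GC content of these 4, and Mir34c and Mir34a, also higher in replicate 1, had the lowest. The part of base composition in the ratios was not tested. Markers of other cell types went in different directions between the libraries. Summed endothelial (219 and 44.5 CPM) and germ-cell markers (30.1 and 14.1 CPM) were higher in replicate 1, blood-cell markers (105 and 183 CPM) were higher in replicate 2, and neuronal (84.4 and 87.8 CPM) and epithelial markers (10.8 and 8.21 CPM) stood closer together. Nearly all of the endothelial sum was Mir126a, with Mir126b at 1.85 and 1.62 CPM, and nearly all of the neuronal sum was Mir153. Most of the blood-cell sum was Mir142 (89.0 and 178 CPM). Mir150, with 1 and 13 reads, went with it, while Mir451a (11.9 and 3.65 CPM) and Mir144 (3.43 and 0.71 CPM) were higher in replicate 1. The germ-cell gene Mir880 went against its list, at 0.396 and 1.62 CPM. The part of these cell types in the ratios was not tested.

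**Figure D3:**
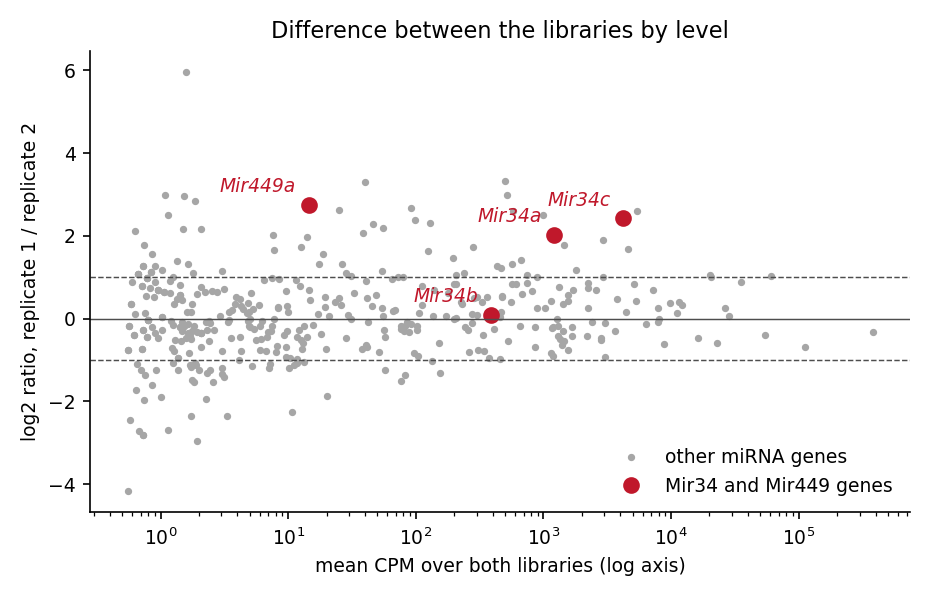
Log2 ratio of replicate 1 to replicate 2 (TMM scaling, 0.5 reads added) against mean CPM on a log axis, 1 point per miRNA gene with 10 or more reads; dashed lines mark 2-fold. Mir449a, Mir34c and Mir34a lie above the upper dashed line, and Mir34b lies near 0.

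Mir34b and Mir34c did not keep a fixed proportion, although their hairpins are neighbours on the same strand. Mir34c exceeded Mir34b 17.7-fold in replicate 1 (95% counting interval 17.1 to 18.4) and 3.51-fold in replicate 2 (3.38 to 3.64), a log2 ratio of 2.98 ± 1.65 (SD, n = 2). The proportion thus differed 5.05-fold between the libraries. The 5′ arms of Mir34b and Mir34c were not compared, and how well reads of these genes were told apart was not tested. Mir34a, from another chromosome, kept closer to Mir34c, with a 1.32-fold difference in the proportion of these genes between the libraries. The proportion of Mir34a to Mir34b moved from 4.88 in replicate 1 to 1.28 in replicate 2, a 3.81-fold difference. No test was made, because the smallest two-sided p that exact paired permutation of 2 libraries allows is 0.5.

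The Mir34b-Mir34c pair was then set among other neighbouring miRNA genes. This was done after the values of the pair had been seen. Of 93 pairs on the same strand, with starts within 10 kb and 100 or more reads for each gene, 11 pairs (11.8%) had library ratios 4-fold or more apart. The median pair was 1.81-fold apart. Mir34c and Mir34b were 6th in this order. The 5 pairs ahead of them were all from the Mir17 cluster, 4 of them with Mir19b-1 or Mir92-1, genes whose hairpins have a stretch of 20 bases in common with another hairpin. Among the 41 pairs of genes without such a stretch, Mir34c and Mir34b were 2nd of 5 pairs that were 4-fold or more apart. An exact stretch of 20 bases does not flag genes whose arms differ by single bases. The pairs are not independent, since a gene can enter several of them.

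**Figure D4:**
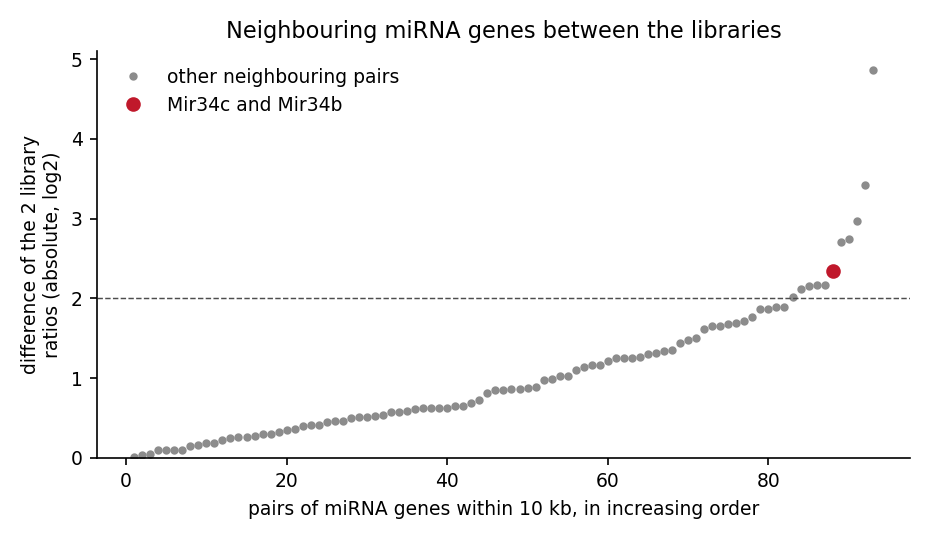
Absolute difference (log2) between the library ratios of neighbouring miRNA genes, for 93 pairs in increasing order; the dashed line marks 4-fold. The red point, Mir34c and Mir34b at 2.34, lies below only 5 pairs.

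By level and library ratio together, the genes most like each member were found from the distance in log2(CPM + 1) over the 2 libraries. For Mir34c these were Mir31 (9340 and 1498 CPM, distance 0.44), Mirlet7g (0.62) and Mir335 (0.73). For Mir34a they were Mir15a (2234 and 643 CPM, distance 0.48), Mir196b (0.71) and Mir26b (0.77). For Mir34b they were Mir92-1 (382 and 369 CPM, distance 0.07), Mir185 (0.26) and Mir101b (0.35). For Mir449a they were Mir3105 (22.4 and 5.58 CPM, distance 0.53), Mir194-2 (0.64) and Mir669o (1.00). The counts of Mir92-1, Mir101b, Mir194-2 and Mir669o are uncertain, because each has a stretch of 20 bases in common with another hairpin. With only 2 libraries such likeness rests on a level and a single ratio.

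Other miRNAs of the same pathways were examined as lists. Of 13 miRNA genes linked to p53 outside the family, 12 were matched, and 8 reached 2 CPM in both libraries. Their summed share of miRNA reads was 9.48% ± 0.737 (SD, n = 2), with the most reads at Mir22 (mean 54496 CPM, SD 9490) and next at Mir143 (mean 35574 CPM, SD 15314). Of 11 with 10 or more reads, 5 were 2-fold or more higher in replicate 1 and none in replicate 2, against 16.6% and 11.3% of all genes, with a median log2 ratio of 0.88. The 5 were Mir15a, at 2234 and 643 CPM, Mir200c, with 25 and 4 reads, and Mir107, Mir16-1 and Mir194-2, whose counts are uncertain for a stretch of 20 bases in common with another hairpin. Mir22 had a log2 ratio of -0.39, with 47786 and 61207 CPM, so the genes of the list did not all go in the same direction. The part of p53 in these ratios was not tested.

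The E2F- and cell-cycle-linked list, of 11 genes from the Mir17, Mir106b and Mir15b clusters, was fully detected and took 1.14% ± 0.413 of miRNA reads (SD, n = 2). Mir17 led it at 5138 ± 2102 CPM and Mir93 followed at 2251 ± 324 CPM (SD, n = 2). Of its genes 3 (Mir20a, Mir15b and Mir16-2) were 2-fold or more higher in replicate 1 and 1 (Mir19b-1) in replicate 2, against 16.6% and 11.3% of all genes, with a median log2 ratio of 0.68. Mir16-2 and Mir19b-1 are uncertain in the same way. Its summed level went from 14272 CPM (replicate 1) to 8432 CPM (replicate 2), while Mir449a alone was at 25.3 and 3.65 CPM.

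Among epithelial and multiciliated-cell miRNAs, the company in which Mir449 genes are usually found, 5 of 12 reached 2 CPM in both libraries. Mir31 at 5419 ± 5545 CPM and Mir182 at 3624 ± 464 CPM (SD, n = 2) led the list, and neither is restricted to epithelium. Of 9 with 10 or more reads, 3 (Mir31, Mir96 and Mir200c) were 2-fold or more higher in replicate 1 and 1 (Mir375) in replicate 2, against 16.6% and 11.3% of all genes, with a median log2 ratio of 0.35. Mir200c and Mir375 are calls on few reads, with 1 and 12 reads for Mir375. The Mir200 family, which marks epithelium most closely, was at a trace: Mir200c had 25 and 4 reads, Mir141 8 and 15, Mir200b 0 and 2, and Mir200a and Mir429 none.

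**Figure D5:**
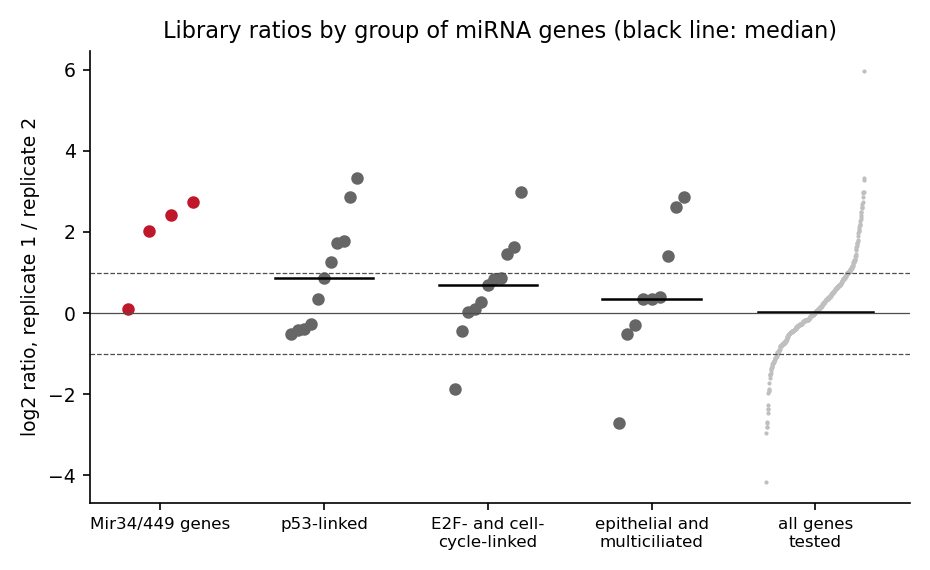
Log2 ratio of replicate 1 to replicate 2 for the 4 members with 10 or more reads, for 3 lists of related miRNA genes and for all 415 genes tested; black lines are medians and dashed lines mark 2-fold. The medians are 0.88 for the p53-linked, 0.68 for the E2F-linked and 0.35 for the epithelial list, against 0.02 for all genes. Other genes within 2-fold of the level of Mir34a, Mir34b, Mir34c and Mir449a have medians of 0.25, 0.46, 0.26 and -0.01.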

How the data were processed

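Small RNA reads of 2 C2C12 myotube libraries were counted per miRNA gene by the authors, and the deposited values are raw read counts made on mm10 with GENCODE M21 annotation, according to notes deposited beside the tables. The aligner, counter, trimming and filters were not given in the sources used here. The tables have counts with strand ignored, on the gene's own strand and on the opposite strand, as read from the values, and 4 summary lines that stayed out of library sizes. In replicates 1 and 2, multimapping reads were 22.0% and 17.9%, unmapped reads 22.7% and 23.1% and no-feature reads 5.88% and 5.57% of 15349205 and 18450359 reads.

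CPM used own-strand miRNA reads. Gene names, positions and hairpins came from GENCODE M21 (GRCm38, which is mm10), where all 2202 identifiers matched, and mature arms from RefSeq (GRCm38.p6). Coordinates are 1-based. Library ratios used TMM factors from edgeR 4.0.16 in R 4.3.3, with exact conditional Clopper-Pearson intervals from scipy 1.17.1 in Python 3.11.15. The intervals were run on simulated counts that held counting error only, so variation between libraries was not tested. Named genes were the members, the 3 nearest genes of each member that averaged at least 10 CPM, and the top 2 of each list; other list genes and pairs were named after their values were seen. Members, lists and tests were chosen with earlier results of these data known. Of the p53-linked list, Mir605 had no match. Alternatives were strand ignored, other denominators, DESeq2 1.42.0 size factors, other pseudocounts and thresholds, and each library left out.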

Additional observations from a re-analysis of the deposited data

How the results depend on the processing

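No paired analysis was possible because the series has a single group. No result reversed under any alternative that was run. Without replicate 1 the family took 0.214% of miRNA reads and without replicate 2 it took 0.952%, so this share rests on which library is read. The log2 ratio of Mir449a to Mir449b was 5.99, or 7.22 with a pseudocount of 0.1 reads and 5.40 with 1 read, and without a pseudocount it had no value, because Mir449b had no read in replicate 2. Genes 2-fold or more higher in replicate 1 numbered 69 of 415. They numbered 179 of 708 with a minimum of 1 read, 45 of 240 with 100 reads and 29 of 152 with 1000 reads, and 122 at 1.5-fold, 25 at 4-fold and 44 among 311 genes without a shared run of 20 bases. The genes higher in replicate 2 numbered 47, and 143, 13 and 5 at those read minimums, 91 at 1.5-fold and 10 at 4-fold. Neighbouring pairs 4-fold or more apart numbered 11 of 93, 5 of 60 with 1000 reads per gene, 20 of 118 with 10 reads and 5 of 41 without shared runs, and Mir34b with Mir34c was 6th, 2nd, 13th and 2nd among them. The minimum of 1000 reads, the settings without shared runs and all settings of the pairs were chosen after seeing the data. Depth limits Mir449b and Mir449c, which had no more than 3 reads in a library.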
